A study of Mus musculus with 28 samples.

Results

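The cytoplasmic ribosomal protein genes encode proteins of the ribosome. They were taken by name alone: rows of the deposited expression table whose symbol is Rpl, Rps or Rplp followed by a number and, in some cases, a closing letter or digit, without the paralogs Rpl10l and Rps27l. The rule found 78 genes of the 17342 in the table. Of these, 43 belong to the large subunit, 32 to the small subunit and 3 (Rplp0, Rplp1 and Rplp2) to the stalk of the large subunit. All 78 matched a RefSeq gene of GRCm38.p6, on 19 chromosomes. Rpl13 lies on chromosome 8, and chromosome 14 holds 3, Rpl15, Rps24 and Rps3a2. RefSeq lists 76 as protein coding and gives Rps3a2 and Rps3a3 another biotype. Both are near copies of Rps3a1, so reads among these rows may be shared and their values are uncertain.

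A ribosome carries each of these proteins in a fixed, mostly single copy number, and copies that are not built into a subunit are degraded. Their mRNAs start with a C followed by a run of pyrimidines, the 5′ TOP motif, through which mTORC1 signalling controls their translation as a group. Growing embryonic stem cells make ribosomes at a high rate, and unassembled Rpl5 and Rpl11 can bind Mdm2 and thereby stabilise p53.

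RNA-seq was done on 7 libraries of mouse V6.5 cells, a male embryonic stem cell (ESC) line of mixed 129 and C57BL/6 origin. The Tet2 enzyme converts methylated cytosines in DNA to oxidized forms, and the study asked which effects of Tet2 on ESC genes do not need that activity. Tet2 wildtype cells (Tet2-WT) were 3 independent ESC samples, Tet2 mutant cells (Tet2-Mut) 2 clones and Tet2 knockout cells (Tet2-KO) 2 clones. The labels do not say which change the mutant allele carries. All were grown in serum with LIF on feeder cells, freed of feeders by pre-plating and kept on gelatin overnight before extraction. Ages do not apply, and no treatment differed between the groups. Every p-value below therefore rests on the spread between 3 samples and 2 clones a genotype, and 2 clones limit how far a genotype can be told from a clone.

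Start sites are shown first because the TOP motif is the sequence these genes are known for. RefSeq promoter windows of 300 bases (GRCm38.p6) were matched for 56 of the 78 genes. A run of at least 5 pyrimidines over the annotated start was present in 20 of the 56 (35.7%), against 11.8% of the windows of 27025 genes. An annotated start can lie some bases away from the one in use, so a start without a run says only that these letters are not at the annotated base. The windows below hold 12 bases before the start and 13 bases from it, 5′ to 3′, and the pyrimidine run that spans the start is in capitals. They are those of genes on which the results turn (Rpl13 on chromosome 8, Rpl15 and Rps24 on chromosome 14). For Rps24 the first of 2 annotated starts is shown, and the second has no run of at least 5 pyrimidines over it. The others are genes with little difference between the Tet2-KO clones (Rpl7a, Rps6, Rpl4 and Rplp0) and the gene with most (Rpl38).
Rpl7a (chr2:26910795-26910819, plus strand): CCCTCTTCTTTCTTTCTCCagcagc
Rpl15 (chr14:18270974-18270998, minus strand): ggagaaagCCTTCTTCCTTTCCTCT
Rps24 (chr14:24490666-24490690, plus strand): gcgctggggTCCTTCCTTgcgcgtt
Rps6 (chr4:86857355-86857379, minus strand): cggaagtcgggCCTCTTTTTCgtga
Rpl38 (chr11:114668568-114668592, plus strand): ggaagcctcgTTCTTTCCCCgttct
Rpl13 (chr8:123102338-123102362, plus strand): cctttcgcctgattttgattggcgt
Rpl4 (chr9:64173375-64173399, plus strand): cttttcctgtgggagcagccgggta
Rplp0 (chr5:115559455-115559479, plus strand): ttcgggtttcgaggaccgcctggtt
Rpl7a and Rpl15 had the longest runs of these 8 genes, 21 and 17 bases, part of which lies outside the window for Rpl7a. Rpl13, Rpl4 and Rplp0 had none over the annotated start. Rpl15 and Rpl38 have a run, Rps24 has one at the first start but not at the second, and Rpl13 has none. These are the genes that stand out below.

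Short motifs were searched by their letters on both strands of the whole 300-base windows. These windows also hold bases after the start, so a match need not lie upstream of it. The ETS core CCGGAAG was found in 23 of the 56 windows (41.1%, against 9.93% of all windows) and TCTCGCG in 14 (25% against 2.92%). The YY1 core AAGATGG was found in 9 (16.1% against 7.28%), the NRF1 core GCGCATG in 8 (14.3% against 4.41%) and the GC box GGGCGG in 34 (60.7% against 38.2%). TATAAA was found in 6 (10.7% against 15.7%), CCAAT in 17 (30.4% against 41.1%) and the E-box CACGTG in 6 (10.7% against 8.09%). A match describes letters and not a bound site. The 100 bases before the start are given for the outlying genes Rpl13, Rpl15 and Rpl38 and, for comparison, Rps6, with matches in capitals.
Rpl13 (chr8:123102250-123102349, plus strand): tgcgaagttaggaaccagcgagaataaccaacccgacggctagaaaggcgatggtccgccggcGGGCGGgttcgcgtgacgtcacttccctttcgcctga
Rpl15 (chr14:18270987-18271086, minus strand): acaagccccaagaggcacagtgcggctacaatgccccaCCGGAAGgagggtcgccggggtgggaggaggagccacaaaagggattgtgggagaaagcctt
Rps6 (chr4:86857368-86857467, minus strand): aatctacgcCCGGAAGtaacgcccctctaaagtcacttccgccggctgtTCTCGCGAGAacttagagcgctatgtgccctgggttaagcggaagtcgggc
Rpl38 (chr11:114668480-114668579, plus strand): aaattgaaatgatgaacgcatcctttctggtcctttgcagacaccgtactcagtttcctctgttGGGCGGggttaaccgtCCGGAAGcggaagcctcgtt
Rpl13 had a GC box, Rpl15 an ETS core, and Rpl38 both. Rps6 had an ETS core and TCTCGCG, which there overlaps its own reverse complement in the run TCTCGCGAGA. No single motif was shared by the 3 outlying genes within these 100 bases. Their 300-base windows all held a GC box, as did 60.7% of the 56 windows, but those of Rps24, which also stands out below, held none.

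The recovered reads per library numbered 41909397 to 58476612. Values are the authors' normalized counts, gene counts divided by 1 size factor per library, which makes libraries comparable but not genes, since they are not per transcript length. Tet2 was lower in both Tet2-KO libraries (4624 and 5206) than in the others (9992 to 13181). ESC markers made up 0.64 to 0.744% of reads and feeder fibroblast markers 0.0893 to 0.155%, and none of the 12 ESC and 25 fibroblast markers measured, of 12 and 27 listed, was at 0 in any library. The fibroblast sum was highest in Tet2-KO replicate 1. The Y-linked gene Eif2s3y stood at 5.79 in Tet2-Mut replicate 2 and 39.2 in Tet2-KO replicate 1, and between 775 and 6243 in the other libraries, although all cells are labelled male. Whole chromosomes also differed, as given below for chromosomes 8 and 14. In bulk RNA, fewer cells with a transcript and less of it per cell cannot be told apart.

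As a group, the ribosomal protein genes held nearly the same share of reads in the 3 genotypes. The share was 6.66 ± 0.24% in Tet2-WT (SD, n = 3), 6.69 ± 0.28% in Tet2-Mut (n = 2) and 6.68 ± 0.83% in Tet2-KO (n = 2). By library it was 6.81, 6.78 and 6.38% in Tet2-WT, 6.89 and 6.49% in Tet2-Mut and 6.09 and 7.26% in Tet2-KO. The 2 Tet2-KO clones were the lowest and the highest of the 7 libraries, so the genotype means lay closer together than the clones. The large subunit took 3.73, 3.78 and 3.72% of reads in Tet2-WT, Tet2-Mut and Tet2-KO, and the small subunit 2.52, 2.50 and 2.53%. The ratio of summed large to small subunit counts stayed between 1.44 and 1.52 in all 7 libraries. The members' mean counts ran from 1691 (Rps3a2) to 145321 (Rpl4), with a median of 39330 against 605 over all genes, and each of the 78 passed the filter on low values. The 4 rows with the most reads were Rpl4, a protein lining the exit tunnel, Rps2, a small subunit core protein, Rplp0, the base of the stalk, and Rpl8. The 4 with the fewest were Rps3a2, Rpl24, Rps10 and Rps3a3.

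**Figure D1:**
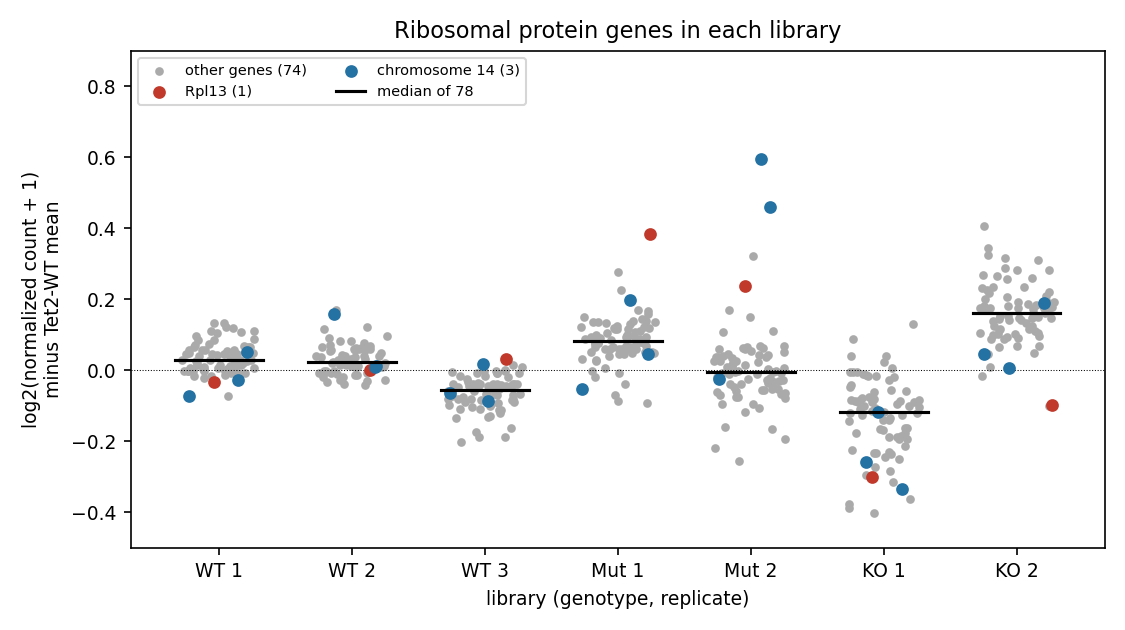
Each point is a ribosomal protein gene in a library (x axis), placed by its log2(normalized count + 1) minus the mean of the Tet2-WT libraries (y axis). The black bars are medians of the 78 genes. The bar is lowest in Tet2-KO replicate 1 (-0.12) and highest in Tet2-KO replicate 2 (0.16), and 2 of the chromosome 14 genes (blue) rise above all others in Tet2-Mut replicate 2.

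Between Tet2-KO and Tet2-WT, limma called 0 of the 78 genes at an adjusted p under 0.05, where 5.91% of all 17338 tested genes were called (2.91% lower). The unadjusted p was under 0.05 for 3, and edgeR and DESeq2 called 0. The median log2 fold change of the members was 0.02, beside -0.002 for all genes and 0.005 for the 7322 genes with a mean count of at least 1000. The fold changes ran from -0.23 to 0.15, and the 95% intervals of all 78 lay within 1.5-fold in either direction. Medians were 0.02 for the large subunit, 0.02 for the small subunit and 0.09 for the 3 stalk genes.

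At the upper end stood Rplp0, the scaffold onto which the other stalk proteins bind. Its normalized count was 112539, 111633 and 112235 in Tet2-WT, 121849 and 107909 in Tet2-Mut, and 122719 and 126912 in Tet2-KO. Both Tet2-KO libraries were above every other library. Against Tet2-WT the Tet2-KO value was 0.15 higher on the log2 scale (SE 0.07, limma adjusted p = 0.199), so the gene did not pass. Its partners Rplp1 and Rplp2, which recruit elongation factors, did not separate the genotypes: Rplp1 measured 53331, 57061 and 51520 in Tet2-WT and 44682 and 67166 in Tet2-KO, and Rplp2 32874, 33603 and 30550 against 28772 and 41063. Their log2 fold changes were 0.02 and 0.09 (limma adjusted p = 0.949 and 0.734), and in both genes one Tet2-KO clone lay below and the other above all Tet2-WT samples. Rpl18 and Rpl8 were the next highest by fold change, with 0.13 and 0.11 (limma adjusted p = 0.294 and 0.459).

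Toward the lower end stood Rpl13, on chromosome 8, with a log2 fold change of -0.20 (limma adjusted p = 0.157), and Rpl17, on chromosome 18. Rpl17, a protein at the mouth of the exit tunnel, measured 42768, 43423 and 39846 in Tet2-WT, 40044 and 52465 in Tet2-Mut, and 32118 and 41502 in Tet2-KO. Its fold change against Tet2-WT was -0.20 (limma adjusted p = 0.398), and the Tet2-KO and Tet2-WT ranges overlapped. In 5 genes (Rpl7, Rpl7a, Rplp0, Rpl18 and Rpl4) the Tet2-KO libraries lay above all Tet2-WT libraries and in 2, Rpl13 among them, below. Among all genes, 21.9% lay wholly above and 22.8% wholly below. Without Tet2-KO replicate 2, the member median became -0.12 and limma called 1 member, and without Tet2-KO replicate 1 the median was 0.16. A single remaining library is assumed in such fits to vary like the other groups.

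Between Tet2-Mut and Tet2-WT, limma again called 0 of 78, where 3.43% of all genes were called (1.44% higher and 1.98% lower). The unadjusted p was under 0.05 for 3, edgeR called 0, and DESeq2 called 1, Rpl13, as higher (adjusted p = 0.0139). The median member fold change was 0.04, beside 0.009 for all genes and 0.03 for genes with a mean of at least 1000. Of the 78 fold changes 63 were positive, as were 58.3% of those of the genes with a mean of at least 1000. The range was -0.14 to 0.32. The intervals of 77 genes lay within 1.5-fold, Rpl15 being the exception. In 19 genes both Tet2-Mut clones lay above all Tet2-WT samples and in 0 below, where the shares over all genes were 20.9% and 19.8%.

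The highest fold changes were those of Rpl15, on chromosome 14 (0.32, limma adjusted p = 0.215), and Rpl13, on chromosome 8 (0.31, limma adjusted p = 0.0615). Rpl13 passed with only these 2 groups fitted (limma adjusted p = 0.0309) and without Tet2-KO replicate 1 or 2 (limma adjusted p = 0.0314 and 0.0318). The 3 lowest were Rps12, Rps15a and Rpl35a. Rps12, a small subunit protein, measured 62648, 59510 and 55071 in Tet2-WT and 55512 and 51546 in Tet2-Mut, with overlapping groups and a fold change of -0.14 (limma adjusted p = 0.4). Rps15a and Rpl35a both had -0.08 (limma adjusted p = 0.765 and 0.746). Without Tet2-Mut replicate 2 their fold changes were 0.09 and 0.07.

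Between Tet2-KO and Tet2-Mut, limma called 2 of 78 genes, both lower in Tet2-KO, where 6.19% of all genes were called (2.64% higher and 3.55% lower). Rpl13 was among them, and edgeR and DESeq2 also called 2. Limma called 1 without each Tet2-WT library, without Tet2-KO replicate 1 and with the replicate number as a block, and Rpl13 was then the call. The median member fold change was -0.01, beside 0.005 for all genes, and the fold changes ran from -0.51 to 0.12. Intervals lay within 1.5-fold for 73 genes. The Tet2-KO libraries lay wholly below the Tet2-Mut libraries in 3 genes, Rpl13 and Rps7 among them, and wholly above in 1, Rplp0, against 21.5% and 23.3% of all genes. The 3 highest fold changes were those of Rplp0 (0.12, limma adjusted p = 0.388), Rps12 (0.10, 0.616) and Rps21 (0.10, 0.779). This comparison shares its libraries with the other 2, so the 3 are not independent of each other.

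**Figure D2:**
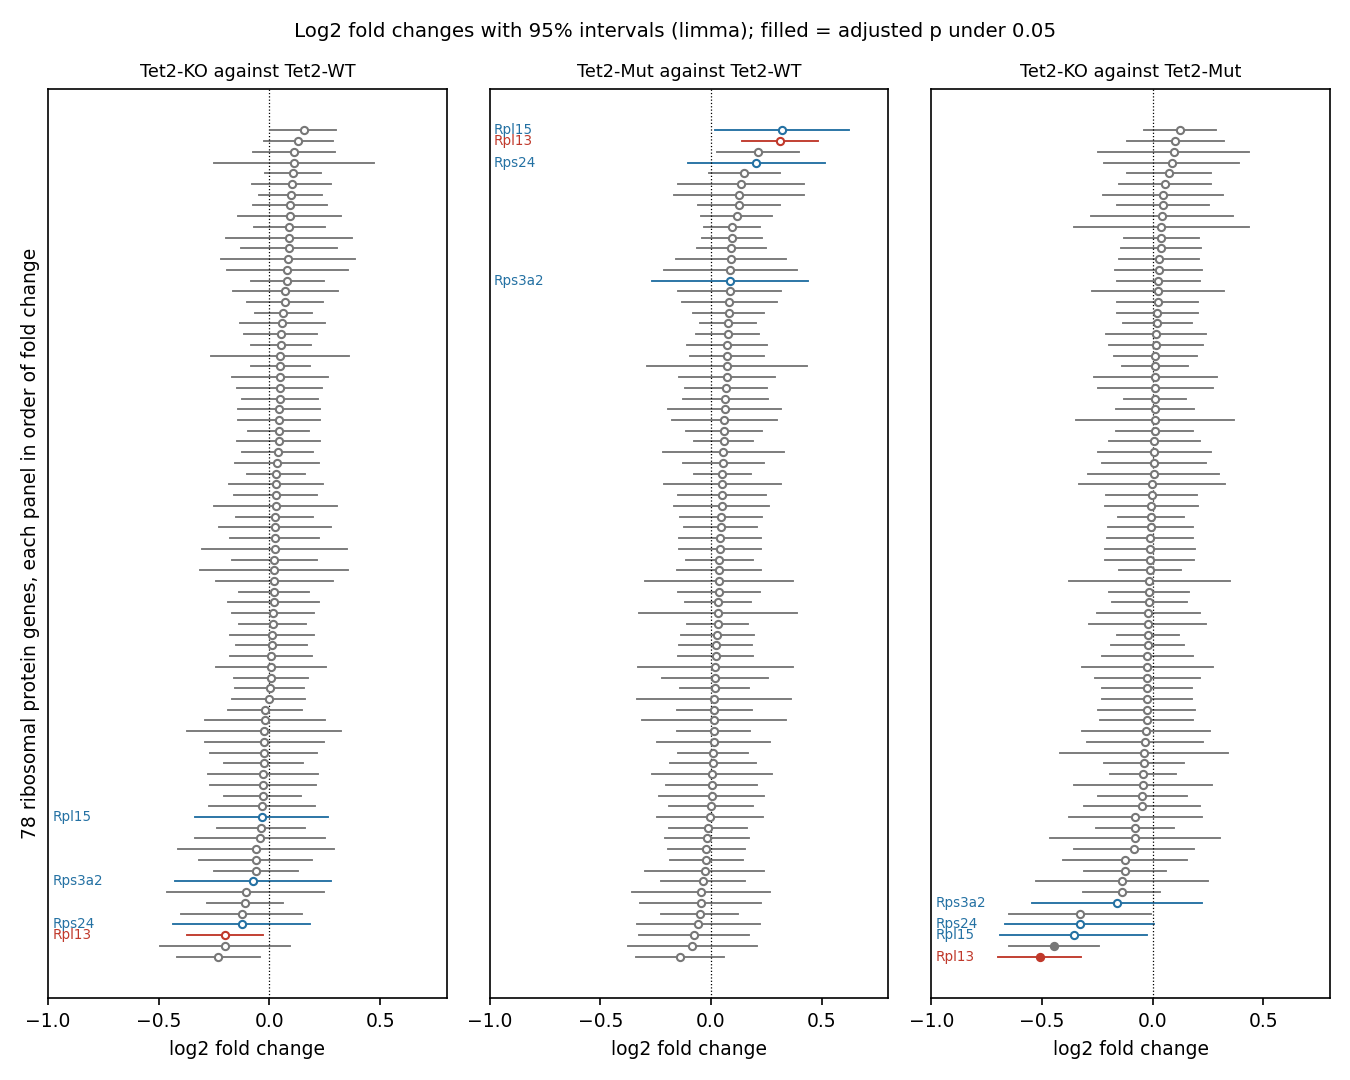
Log2 fold changes (x axis) of the 78 ribosomal protein genes with 95% limma intervals, ordered within each panel; Rpl13 is red and the genes of chromosome 14 are blue. Filled points passed the test: 0, 0 and 2 genes in the 3 panels, with Rpl13 lowest in the third at -0.51.

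Rpl13 (chr8:123102350-123105244, GRCm38.p6), a large subunit protein that contacts ribosomal RNA near the subunit's surface, had the lowest adjusted p of the members in this comparison. Its normalized count was 80958, 82842 and 84637 in Tet2-WT, 108108 and 97640 in Tet2-Mut, and 67195 and 77346 in Tet2-KO. The 3 genotypes did not overlap. It was lower in Tet2-KO than in Tet2-Mut by 0.51 on the log2 scale (0.702-fold, SE 0.08, limma adjusted p = 0.00948). Relative to the median count of the large subunit genes in the same library, Rpl13 stood at 2.08 to 2.26 in Tet2-WT, at 2.64 and 2.50 in Tet2-Mut and at 1.89 and 1.83 in Tet2-KO.

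The call of Rpl13 held without each library in turn, with limma adjusted p from 0.00885 without Tet2-KO replicate 2 to 0.0405 without Tet2-KO replicate 1. With the replicate number as a block the limma adjusted p was 0.0469. With only the 2 groups fitted, limma gave an adjusted p of 0.11 for Rpl13 and called 0 of all genes. At that setting 2 members had an unadjusted p under 0.05.

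The 861 tested genes of chromosome 8 moved in the same directions as Rpl13. Their median stood at -0.03, -0.02 and 0.06 in the Tet2-WT libraries, at 0.28 and 0.27 in Tet2-Mut and at -0.28 and -0.24 in Tet2-KO, on the log2 scale relative to the Tet2-WT mean. Of the 861, limma called 136 higher and 6 lower in Tet2-Mut than in Tet2-WT, and 396 lower and 3 higher in Tet2-KO than in Tet2-Mut. The first count depended on single libraries: 1 gene was higher without Tet2-WT replicate 1, 0 without replicate 2 (unadjusted p under 0.05 in either direction for 352), 41 without replicate 3, 40 without Tet2-Mut replicate 2 and 203 without Tet2-Mut replicate 1. The second ranged from 239 lower without Tet2-KO replicate 1 to 409 without Tet2-Mut replicate 1. Relative to the chromosome's median fold change, Rpl13 stood at 0.06 in Tet2-KO against Tet2-WT, 0.04 in Tet2-Mut against Tet2-WT and 0.01 in Tet2-KO against Tet2-Mut. When each library was centred on the medians of its chromosomes, an alternative added after these values were seen, limma called 0 of the 78 genes in each comparison (unadjusted p under 0.05 for 1, 4 and 4). Rpl13 then had 0.01 in Tet2-KO against Tet2-Mut (limma adjusted p = 0.981). No measurement of chromosome copy number was analysed here.

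**Figure D3:**
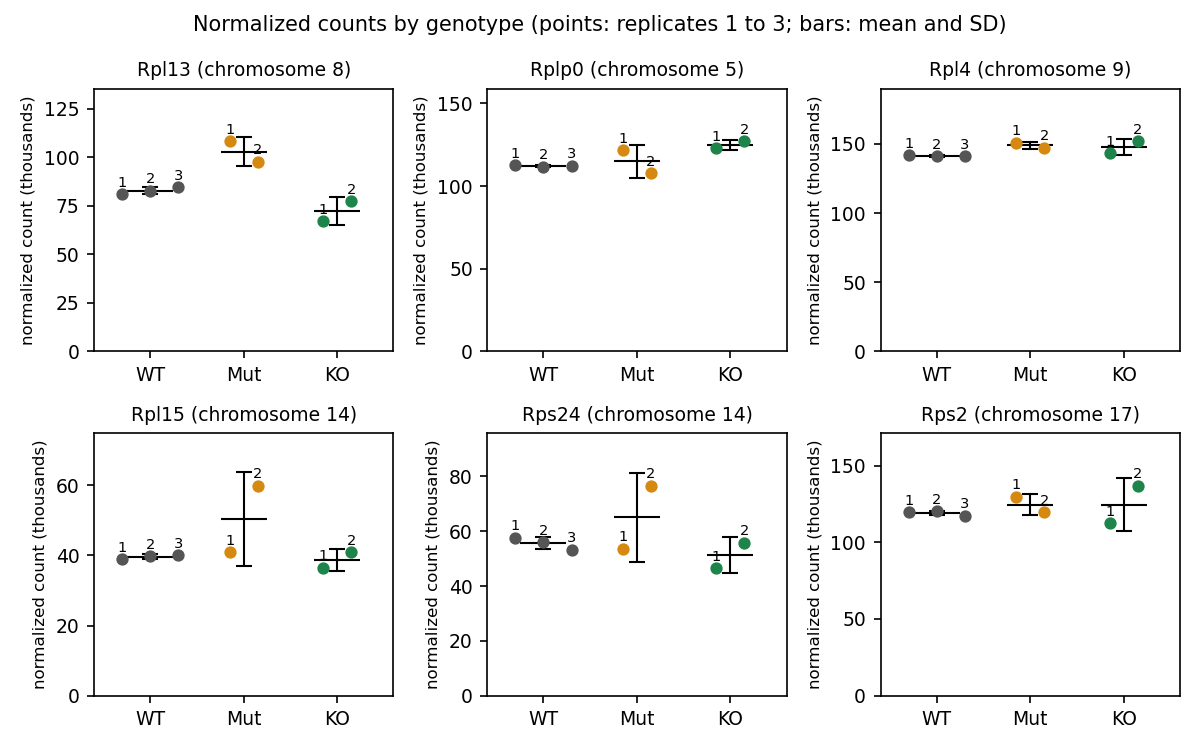
Normalized counts (y axis, divided by 1000) of 6 ribosomal protein genes by genotype (x axis), with each library as a numbered point and the mean and SD as black lines. The 3 genotypes do not overlap for Rpl13, and Tet2-Mut replicate 2 stands above the other libraries for Rpl15 (59875) and Rps24 (76597).

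On chromosome 14 the difference lay between the 2 Tet2-Mut clones. Rpl15 (chr14:18267823-18270986), a large subunit protein whose loss causes Diamond-Blackfan anaemia, measured 38916, 39865 and 40159 in Tet2-WT, 40937 and 59875 in Tet2-Mut, and 36515 and 40951 in Tet2-KO. Only Tet2-Mut replicate 2 stood apart from the rest. Rps24 (chr14:24490678-24496960), a small subunit protein needed to process the precursor of 18S rRNA, measured 57667, 56094 and 53244 in Tet2-WT, 53680 and 76597 in Tet2-Mut, and 46552 and 55881 in Tet2-KO. The same library was again the highest. Rps3a2 (chr14:88122952-88123833) measured 1646 in Tet2-Mut replicate 2 and 1327 to 1922 in the other libraries, so it did not share this rise.

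With both Tet2-Mut clones, the log2 fold change of Rps24 against Tet2-WT was 0.20 (limma adjusted p = 0.434), and neither Rpl15 nor Rps24 passed in any comparison. Without Tet2-Mut replicate 1, both passed: Rpl15 at 0.59 (limma adjusted p = 0.00213) and Rps24 at 0.46 (limma adjusted p = 0.0177). Without Tet2-Mut replicate 2, Rps24 stood at -0.05. Without Tet2-Mut replicate 1, 5 members were lower in Tet2-KO than in Tet2-Mut, Rpl13, Rpl15, Rps24 and Rpl17 among them. The ratio of Rpl15 to the median large subunit gene was 1.53 in Tet2-Mut replicate 2 and 0.968 to 1.07 in the other libraries, and that of Rps24 to the median small subunit gene 1.95 against 1.29 to 1.45.

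The 569 tested genes of chromosome 14 had a median of 0.49 in Tet2-Mut replicate 2 and of -0.05 in Tet2-Mut replicate 1, relative to the Tet2-WT mean. Tpt1, another TOP mRNA of chromosome 14, measured 104772 in Tet2-Mut replicate 2 and 63052 to 71552 elsewhere. Rpl17 was 0.39 higher in Tet2-Mut replicate 2 than in replicate 1. The median of the same difference over the 420 genes of its chromosome 18 was 0.05.

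**Figure D4:**
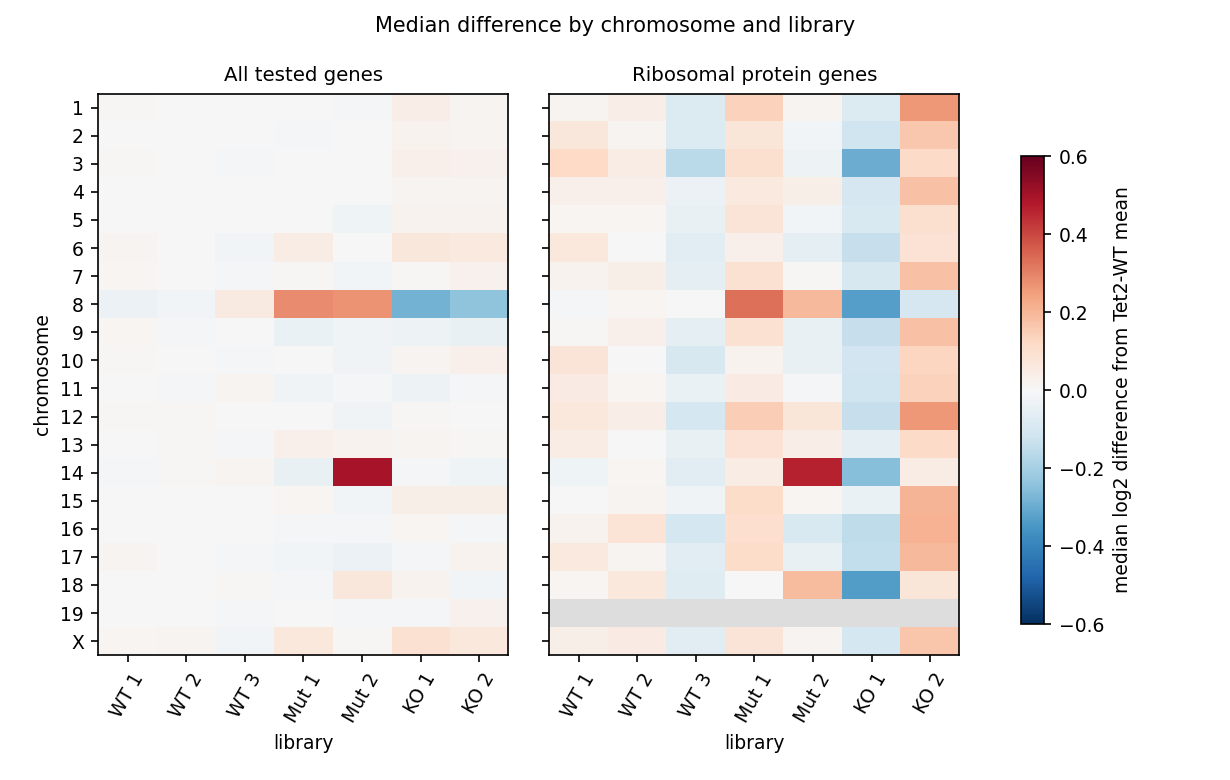
Median log2 difference from the Tet2-WT mean by chromosome (rows) and library (columns), for all tested genes (left) and for the ribosomal protein genes alone (right); grey marks a chromosome without such genes. Chromosome 8 is high in both Tet2-Mut and low in both Tet2-KO libraries, chromosome 14 is high in Tet2-Mut replicate 2 (0.49), and the members of each chromosome that holds any are lower in Tet2-KO replicate 1 than in Tet2-KO replicate 2.

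The ribosomal protein genes also differed as a group between the 2 Tet2-KO clones. All 78 were higher in replicate 2 than in replicate 1, with a median log2 difference of 0.26, while 48.5% of all genes were higher and their median difference was -0.01. This sets 1 library against 1, so it has no test. The difference ran from 0.04 (Rpl7a) to 0.64 (Rpl38), and was 0.23 at the median of the large subunit, 0.29 of the small subunit and 0.51 of the stalk. The count was 78 of 78 under the deposited size factors, upper quartile scaling, total reads and TMM, with medians of 0.26 to 0.28. Among the other lists, 86 of 97 nuclear oxidative phosphorylation genes (median 0.25), 56 of 78 mitochondrial ribosomal protein genes (0.07), 24 of 38 proteasome genes (0.03) and 21 of 70 ribosome assembly genes (-0.07) were higher in replicate 2. Of the other TOP mRNAs 17 of 25 were higher (median 0.07), and of the ESC markers 10 of 12 (0.20).

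Rpl38, a small surface protein of the large subunit with a known role in translating Hox mRNAs, measured 13947, 13394 and 11887 in Tet2-WT, 13310 and 13142 in Tet2-Mut, and 10041 and 15606 in Tet2-KO. The 2 Tet2-KO clones enclosed every other library. Rps29, a small subunit zinc-finger protein, measured 13234, 12426 and 10708 in Tet2-WT, 13575 and 11851 in Tet2-Mut, and 10610 and 16016 in Tet2-KO. It had the same form, with the clones at both ends. Rpl7a, by contrast, measured 70650, 70218 and 71513 in Tet2-WT, 77983 and 73320 in Tet2-Mut, and 75244 and 77164 in Tet2-KO. Tet2-KO against Tet2-WT gave 0.11 on the log2 scale (limma adjusted p = 0.299). These 3 genes were chosen for their values.

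In the other genotypes the median difference between clones or samples was smaller, though not that of every gene. Tet2-Mut replicate 2 was above replicate 1 in 8 of 78 genes, with a median difference of -0.10 and a range from -0.34 (Rps15a) to 0.55 (Rpl15). Tet2-WT replicate 3 was above replicate 1 in 7 of 78, with a median of -0.09, and Tet2-WT replicate 2 was above replicate 1 in 35. For Rpl15, Rps24 and Rpl17 the Tet2-Mut clones differed by 0.55, 0.51 and 0.39 and the Tet2-KO clones by 0.17, 0.26 and 0.37. Rplp0, Rpl7a, Rpl13a, Rpl35a and Rpl7 also differed more between the Tet2-Mut clones than between the Tet2-KO clones. For Rplp0, replicate 2 minus replicate 1 was -0.18 in Tet2-Mut and 0.05 in Tet2-KO. For Rps6 and Rps26 the range over the Tet2-WT samples was also wider than the difference between the Tet2-KO clones.

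**Figure D5:**
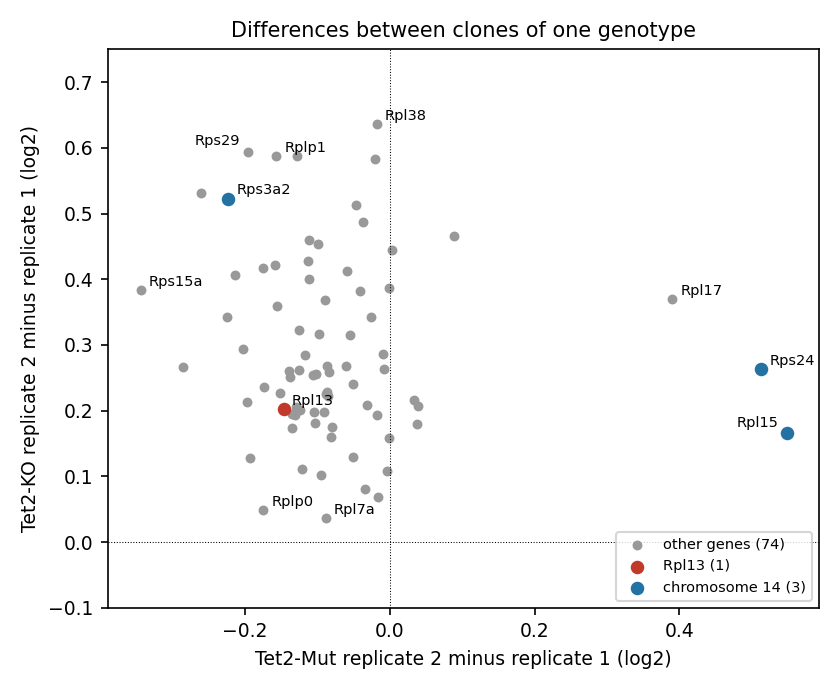
Each point is a ribosomal protein gene, placed by its log2 difference between the 2 Tet2-Mut clones (x axis) and between the 2 Tet2-KO clones (y axis). All 78 points lie above 0 on the y axis, from 0.04 to 0.64, and Rpl15, Rps24 and Rpl17 lie far to the right.

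Some members varied between libraries far more than others. The residual SD on the log2 scale was 0.109 at the median, from 0.0312 for Rpl4 to 0.247 for Rps29. It was 0.0924 at the median of genes with a mean of at least 1000, 0.076 for mitochondrial ribosomal proteins, 0.0699 for proteasome subunits and 0.127 for oxidative phosphorylation genes. The 10 members with the widest Tet2-KO clone difference were Rpl38, Rps29, Rplp1, Rps27, Rpl39, Rpl37a, Rps3a2, Rplp2, Rps16 and Rps21. Their log2 range over the 3 Tet2-WT samples was 0.14 to 0.32. The 10 with the narrowest were Rpl7a, Rplp0, Rps6, Rpl4, Rpl6, Rpl19, Rpl7, Rpl13a, Rps3a1 and Rps26, with a Tet2-WT range of 0.008 to 0.21. Across the 78 genes, Spearman's rho of the Tet2-KO clone difference was 0.71 with the Tet2-WT range and -0.55 with the mean count, as descriptions across genes that share their libraries. Transcript length was not analysed here.

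Other properties of the libraries also differed between the 2 Tet2-KO clones, and their part in the shift of the members was not tested. The 25 fibroblast markers stood at a median of 1.48 in Tet2-KO replicate 1 and 0.80 in replicate 2, as log2 differences from the Tet2-WT samples' mean, and 24 of 25 were lower in replicate 2. The ESC markers had medians of -0.27 and 0.03 in the same clones. In Tet2-Mut, replicate 1 exceeded replicate 2 in both the fibroblast marker median (0.63 against 0.22) and the member median (0.08 against -0.004). The ESC marker medians there were -0.02 and 0.03. Among Tet2-WT samples, replicate 3 had the lowest fibroblast marker (-0.03) and member (-0.06) medians and the highest ESC marker median (0.05). In Tet2-KO against Tet2-WT, 8 fibroblast markers rose and 0 fell. The count rising was 1, 2 and 0 without Tet2-WT replicates 1, 2 and 3 (unadjusted p under 0.05 for 17, 16 and 17), 1 without Tet2-KO replicate 1, and 15 and 14 without Tet2-Mut replicates 1 and 2. Eif2s3y measured 39.2 and 1566 in Tet2-KO replicates 1 and 2.

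Of all genes tested, limma called 5.91% in Tet2-KO against Tet2-WT, 3.43% in Tet2-Mut against Tet2-WT and 6.19% in Tet2-KO against Tet2-Mut. Of the 19 members linked to Diamond-Blackfan anaemia, an inherited failure of red cell production, limma, edgeR and DESeq2 called 0 in each comparison. The unadjusted limma p was under 0.05 for 0, 1 and 1 of them in Tet2-KO against Tet2-WT, Tet2-Mut against Tet2-WT and Tet2-KO against Tet2-Mut. Their medians were 0.01, 0.04 and -0.01. Rpl5 and Rpl11, which belong to this list and bind Mdm2 when free, had fold changes of -0.003 and 0.04 in Tet2-KO against Tet2-WT (limma adjusted p = 0.988 and 0.805) and of 0.01 and 0.07 in Tet2-Mut against Tet2-WT (limma adjusted p = 0.946 and 0.686). Of 7 genes of the Mdm2 checkpoint, Ccng1 and Zmat3 rose and Mdm4 fell in Tet2-KO against Tet2-WT (0.39, 0.26 and -0.29, limma adjusted p = 0.0265, 0.0495 and 0.0395). Limma called 0 of the 7 without Tet2-KO replicate 1 or Tet2-WT replicates 1, 2 or 3 (unadjusted p under 0.05 for 3, 4, 3 and 3), and 3 higher and 1 lower without either Tet2-Mut library. In Tet2-Mut against Tet2-WT, Cdkn2a and Zmat3 rose (0.72 and 0.35, limma adjusted p = 0.0327 and 0.0313). Limma called 0 there without Tet2-Mut replicate 2 or Tet2-WT replicates 1, 2 or 3 (unadjusted p under 0.05 for 4, 3, 3 and 3). In Tet2-KO against Tet2-Mut, Mdm4 fell (-0.33, limma adjusted p = 0.0291). Limma called 0 there without Tet2-KO replicate 1 or Tet2-WT replicates 1, 2 or 3 (unadjusted p under 0.05 for 2 each).

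Ribosomal proteins whose symbols fall outside the pattern were also measured. Rpsa, a small subunit protein, Fau, a ubiquitin-like fusion with a small subunit protein, and Rack1, a signalling scaffold on the small subunit, had fold changes between -0.01 and 0.07 in the 3 comparisons.

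The 9 paralogs are further copies of ribosomal protein genes, some of them restricted to a few tissues, and a read may be shared between a copy and its parent. Rpl39l, a copy of Rpl39 best known from the testis, measured 679, 594 and 656 in Tet2-WT, 330 and 84.9 in Tet2-Mut, and 196 and 234 in Tet2-KO. All 4 Tet2-Mut and Tet2-KO libraries were below Tet2-WT, with log2 fold changes of -1.93 and -1.58 (SE 0.44 each, limma adjusted p = 0.0514 and 0.0704). The parent gene Rpl39 had 0.02 and -0.02 (limma adjusted p = 0.971 and 0.951). Rpl3l, the striated muscle copy of Rpl3, measured 59.1, 54.6 and 42.5 in Tet2-WT, 29.9 and 63.7 in Tet2-Mut, and 8.26 and 21.7 in Tet2-KO, with a fold change of -1.86 (limma adjusted p = 0.0623) in Tet2-KO against Tet2-WT. Both Tet2-KO clones were below all other libraries. Rpl22l1 had -0.45 (limma adjusted p = 0.135) and Rps4l 0.06 (0.606) in the same comparison. Limma and edgeR called 0 of the 9 paralogs in each comparison, with unadjusted p under 0.05 for 3, 1 and 2, and DESeq2 called 1, 0 and 0.

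The genes that assemble ribosomes were set beside the members, from a list of 70. Their median log2 difference from the Tet2-WT mean was -0.06, -0.01 and 0.07 in Tet2-WT replicates 1, 2 and 3. It was 0.15 in both Tet2-Mut libraries, and 0.14 and 0.07 in Tet2-KO replicates 1 and 2. Within Tet2-WT, 68 of the 70 were higher in replicate 3 than in replicate 1 (median 0.12), as were 49.9% of all genes. In Tet2-Mut against Tet2-WT, 6 rose and 0 fell, with a median of 0.16, where 1.44% of all genes were called higher. The nuclease Nob1, Heatr3, Utp4 and Nip7, all on chromosome 8, rose by 0.59, 0.55, 0.48 and 0.44, and the ATPase Mdn1 and Rpf2, elsewhere, by 0.36 and 0.34 (limma adjusted p = 0.0172, 0.0168, 0.0242, 0.0255, 0.0492 and 0.0375). The count was 0 without Tet2-WT replicate 1 or 2 (unadjusted p under 0.05 for 15 and 17), 3 and 2 without Tet2-WT replicate 3 or Tet2-Mut replicate 2, and 11 without Tet2-Mut replicate 1. In Tet2-KO against Tet2-WT, 1 passed, Rrs1, which rose by 0.27 (limma adjusted p = 0.0425), with a list median of 0.11. It numbered 4 without Tet2-Mut replicate 1 or 2, and limma called 0 without Tet2-KO replicate 2 or Tet2-WT replicates 1, 2 or 3 (unadjusted 20, 6, 8 and 19). In Tet2-KO against Tet2-Mut, 4 fell, all on chromosome 8, where 3.55% of the genes of all chromosomes were called lower.

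Over the 7 lists around the ribosome and the other protein complexes, 344 genes in all, 13 lie on chromosome 8. Of these 13, 8 rose in Tet2-Mut against Tet2-WT and 10 fell in Tet2-KO against Tet2-Mut, while 3 of the other genes passed in each of these comparisons. In Tet2-KO against Tet2-WT, 1 of the 13 passed, Mrps31, which was lower, and 1 of the other genes, Rrs1. This count was chosen after the chromosome 8 values were seen. Among regulators of growth, Mycn, which drives ribosomal genes, rose by 0.68 in Tet2-KO and 0.39 in Tet2-Mut against Tet2-WT (limma adjusted p = 0.00522 and 0.0315). Without Tet2-Mut replicate 2 or Tet2-WT replicates 1 or 2, limma called 0 of the 11 genes of the Myc list in Tet2-Mut against Tet2-WT (unadjusted p under 0.05 for 3, 1 and 2). Eif4ebp1, a target of mTORC1 on chromosome 8, rose by 0.57 in Tet2-Mut against Tet2-WT (limma adjusted p = 0.0131), a call lost without Tet2-WT replicate 1 or 2. Of 25 other TOP mRNAs, limma called 0 in each comparison, with an unadjusted p under 0.05 for 4, 1 and 0, edgeR called 1, 0 and 0, and DESeq2 2, 0 and 0. Their medians were 0.06, 0.04 and 0.03.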

How the data were processed

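RNA-seq measured 7 cultures of mouse ESCs. Tools named per the submitters' processing notes include STAR 2.7.3a, Trim Galore 0.6.5, DESeq2 and featureCounts, and the build mm10 is named. The sources used here do not give the strand setting of the counting. The deposited values are a signal, gene counts that the authors divided by 1 size factor per library. In each library 100% of values were whole multiples of 1 read within 0.01 of a read. The step of Tet2-WT replicate 1 was taken as the lowest value divided by 2, because no gene there had a single read. Recovered reads numbered 58476612, 51716734 and 41909397 in Tet2-WT, 48884116 and 52898387 in Tet2-Mut, and 48345487 and 47942380 in Tet2-KO. The lowest total of a gene over the 7 libraries was 71 reads.

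The test was limma 3.58.1 (R 4.3.3) with trend on log2(normalized count + 1), in 1 model of group means over all 7 libraries. A gene was kept if 2 or more libraries had a value of 10 or more (17338 of 17342), and p-values were adjusted by Benjamini-Hochberg over all of them at 0.05. Fold changes are on that scale, and intervals are 95% limma intervals. On the recovered reads edgeR 4.0.16 (quasi-likelihood) called 1108, 582 and 1054 genes and DESeq2 1.42.0 called 1970, 1550 and 1815, against 1025, 594 and 1074 by limma, in Tet2-KO against Tet2-WT, Tet2-Mut against Tet2-WT and Tet2-KO against Tet2-Mut. The fitting code was tested on simulated data. Promoter windows and positions come from RefSeq (GRCm38.p6), which matched 16093 genes (92.8%).

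Named genes were the members past the test, the 3 highest and 3 lowest fold changes per comparison, the 4 members with the most and the 4 with the fewest reads, those of chromosomes 8 and 14, the stalk genes, the genes outside the symbol pattern, the paralogs, and up to 4 genes past the test per list. Other genes named, the sequences shown, the clone differences and the centring on chromosomes were chosen after values were seen. The members and all lists were chosen with earlier results of these data known. Alternatives were other pseudocounts, no filter, upper quartile scaling, only the groups compared, the replicate number as a block, edgeR, DESeq2 and leaving out each library. Some genes that the rule would name are not reported here.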

Additional observations from a re-analysis of the deposited data

How the results depend on the processing

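The lowest mean among the members was 1691 normalized counts. The number of members called in Tet2-KO against Tet2-Mut, 2 in the report, was 0 with only the 2 groups compared (unadjusted p under 0.05 for 2), 0 after centring on chromosome medians and 1 to 5 when a library was left out. In Tet2-Mut against Tet2-WT it was 1 with only the 2 groups, 1 with DESeq2 and 0 to 2 when a library was left out, and in Tet2-KO against Tet2-WT 0 to 1. The replicate numbers do not pair the samples, which are independent cultures and clones (correlations of deviations between -0.073 and 0.087); with the replicate block, limma called 0, 0 and 1 members, and 15, 7 and 467 genes in all, in Tet2-KO against Tet2-WT, Tet2-Mut against Tet2-WT and Tet2-KO against Tet2-Mut. With only the 2 groups compared, 2153, 901 and 0 genes were called. The median member fold change, when a library was left out, ran from -0.12 to 0.16 in Tet2-KO against Tet2-WT, from -0.004 to 0.08 in Tet2-Mut against Tet2-WT and from -0.15 to 0.12 in Tet2-KO against Tet2-Mut. Pseudocounts, the filter, upper quartile scaling and edgeR changed none of these counts of members called.

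Signs turned for 19 values of single genes, 18 of them not called in the report. When a library was left out, values in Tet2-KO against Tet2-WT ran from -0.12 to 0.047 for Rpl15, from -0.26 to 0.0063 for Rps24 and from -0.33 to 0.19 for Rps3a2, the lower end without the second Tet2-KO clone and the upper without the first. In Tet2-Mut against Tet2-WT they ran from -0.26 to 0.088 for Rps15a, from -0.22 to 0.067 for Rpl35a, from -0.052 to 0.46 for Rps24, from -0.024 to 0.20 for Rps3a2 and from -0.12 to 0.28 for Tet2, with a Tet2-Mut clone left out at each end. In Tet2-KO against Tet2-Mut they ran from -0.025 to 0.23 for Rps12, from -0.14 to 0.33 for Rps21 and from -0.42 to 0.10 for Rps3a2, with a Tet2-KO clone left out at each end. After centring on chromosome medians, Rpl13 stood at 0.029 in Tet2-KO against Tet2-WT. In Tet2-Mut against Tet2-WT the centring put Rps15a at 0.0033, Rpl35a at 0.016, Rps24 at -0.016 and Rps3a2 at -0.13. In Tet2-KO against Tet2-Mut it put Rpl13 at 0.0056 and Rps3a2 at 0.040. The centring removes by construction what a gene shares with its chromosome. For the other values the cause was not tested.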

Other observations

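Pseudogene rows named after ribosomal protein genes were also listed, 64 in all, and held reads equal to 0.604 to 0.634% of those of the members in the 7 libraries. In Tet2-KO against Tet2-WT limma called 0 of the 64, with an unadjusted p under 0.05 for 6, edgeR called 0 and DESeq2 1. Reads of such rows may come from the parent genes, and 46 of 64 were higher in Tet2-KO replicate 2 than in replicate 1, with a median of 0.33.

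Of 19 genes of the RNA polymerase I machinery, which transcribes ribosomal RNA, 1 fell in Tet2-KO against Tet2-Mut, Taf1c on chromosome 8 (-0.56, limma adjusted p = 0.013). In Tet2-KO against Tet2-WT and Tet2-Mut against Tet2-WT limma called 0, with an unadjusted p under 0.05 for 4 and 5. There edgeR called 0 and 0, and DESeq2 0 and 1.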
